A study of Mus musculus with 11 samples.

Results

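The genes described here encode the proteins of the cytosolic ribosome, the particle that translates nuclear-encoded mRNA. They were chosen by symbol: Rps or Rpl followed by a number, with Rpsa, Rplp0, Rplp1 and Rplp2, annotated as protein coding, and listed in both tables of normalised values that the authors deposited. The rule took 68 of the 10531 genes listed in both tables, 28 of the small subunit and 40 of the large subunit. The rule itself reads no expression value beyond the authors' filter on low counts, but the set was picked with earlier results of these data known. In the gene annotation 89 symbols matched, of which 6 were pseudogenes and 83 protein coding. Of the 15 coding genes left out, 10 were in neither table, 4 (Rpl17, Rpl22l1, Rps16 and Rps27) in the Tcf7 table only, and Rpl38 in the Bcl11b table only.

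A ribosome holds 1 copy of nearly every ribosomal protein, so cells make these proteins in close proportion, and a growing cell spends much of its transcription and translation on them. Their mRNAs as a class start with a C followed by a run of pyrimidines, the 5′ terminal oligopyrimidine (TOP) tract, through which mTOR signalling and Larp1 set their translation. MYC raises transcription of ribosomal protein genes and of the nucleolar factors that assemble ribosomes. Developing T cells are sensitive to single ribosomal proteins: loss of Rpl22 in mice blocks αβ T cells at the pre-TCR checkpoint.

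The cells were mouse thymocytes sorted as negative for CD24 and for TCRβ, a minor thymus fraction without the bulk of developing T cells. The Bcl11b table holds postnatal day 0, with 2 wild-type libraries (Bcl11b +/+), 2 with a single mutant copy (Bcl11b +/N440K) and 2 of genotype Bcl11b D/N440K. N440K changes residue 440 of Bcl11b, a zinc finger transcription factor of T cell commitment, and what D stands for is not defined in the labels. The Tcf7 table holds postnatal day 7, with 2 wild-type libraries (Tcf7 +/+) and 3 that carry the label Tcf7 F/F:Vav1-Cre, called Cre-labelled libraries below. Tcf7 encodes TCF1, a Notch-induced T lineage factor. F/F marks 2 floxed copies, and Vav1-Cre is active in blood cells, so a deletion would not be limited to T cells. Nothing in the labels says whether replicates came from separate animals, so p-values measure the spread between these libraries only.

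Library totals were 999381 to 1842717 counts, and the 68 genes took 0.311 to 0.551% of them. Levels are given as CPM, counts scaled to library size by the authors' normalization. The Bcl11b gene itself stood at 641.4 and 505.6 CPM in wild type, at 185.2 and 225 with +/N440K, and at 151.6 and 203.6 with D/N440K. The Tcf7 gene stood at 552.2 and 593.5 CPM in its controls and at 846.7, 658.3 and 694.3 in the Cre-labelled libraries, so its total went against that label (edgeR adjusted p = 0.0497, higher). A gene total cannot show the loss of a floxed exon. Reads of Y-linked genes and of Xist were both present in every Bcl11b library. In the Tcf7 table both +/+ libraries and Cre-labelled replicate 2 had Y-linked reads with 11 Xist counts at most, and Cre-labelled replicates 1 and 3 had 2091 and 2623 Xist counts with 2 Y-linked counts at most. The 2 Tcf7 +/+ libraries differed from each other more than any other pair: over all genes, chi-square per degree of freedom was 4.94, against 1.14 to 2.16 in the other pairs.

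Levels were compared between genes per kilobase of annotated exon, in the +/+ groups (mean of 2 libraries). Among the highest in Bcl11b +/+ were Rplp1 at 277.8 CPM per kb and Rpl8 at 222.3. In Tcf7 +/+ they included Rpl4 at 216.8 CPM per kb and Rpl8 at 191.4. Rplp1 forms the acidic stalk that recruits elongation factors, and Rpl8 and Rpl4 are core proteins of the large subunit. The lowest in Bcl11b +/+ were Rpl11 at 2.67, Rps28 at 3.48 and Rpl5 at 3.68 CPM per kb, and in Tcf7 +/+ Rpl21 at 2.65, Rps10 at 2.80 and Rpl11 at 4.07. These levels therefore spanned about 2 orders of magnitude among genes whose proteins stand in nearly equal number in the ribosome. The length used joins the exons of all annotated transcripts of a gene, 499 bases for Rplp1 and 3920 for Rpl5. Span and order depend in part on that length. The lowest genes also had few reads, with Rpl11 at 10.2 and 4.15 CPM in Bcl11b +/+.

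Many ribosomal protein genes have near-identical processed pseudogenes, and a read that fits several places is commonly not counted. Only 6.16% of the 50-base stretches of Rpl5 transcripts were found in no other annotated gene, and 37.8% of those of Rpl11, while Rpl8 had 93.5%. Across the 83 coding genes matching the rule, the level per kb and this share had a Spearman rho of 0.35 in Bcl11b +/+ and 0.30 in Tcf7 +/+ (Pearson r of log2 levels 0.22 and 0.24), a description across genes that share libraries. The 20 genes under 25% had a median of 7.30 CPM per kb in Bcl11b +/+, against 18.7 in the 14 genes at 75% or more. Rps10 stood at 74.68 and 67.25 CPM in Bcl11b +/+ but at 5.07 and 7.89 CPM in Tcf7 +/+. It shares exons with other annotated genes, and the 2 tables list different sets of gene identifiers, so its level is uncertain across tables. In all, 34 of the 68 genes overlap exons of another annotated gene. Counts of all such genes are uncertain, and the comparisons below stay within a table.

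**Figure D1:**
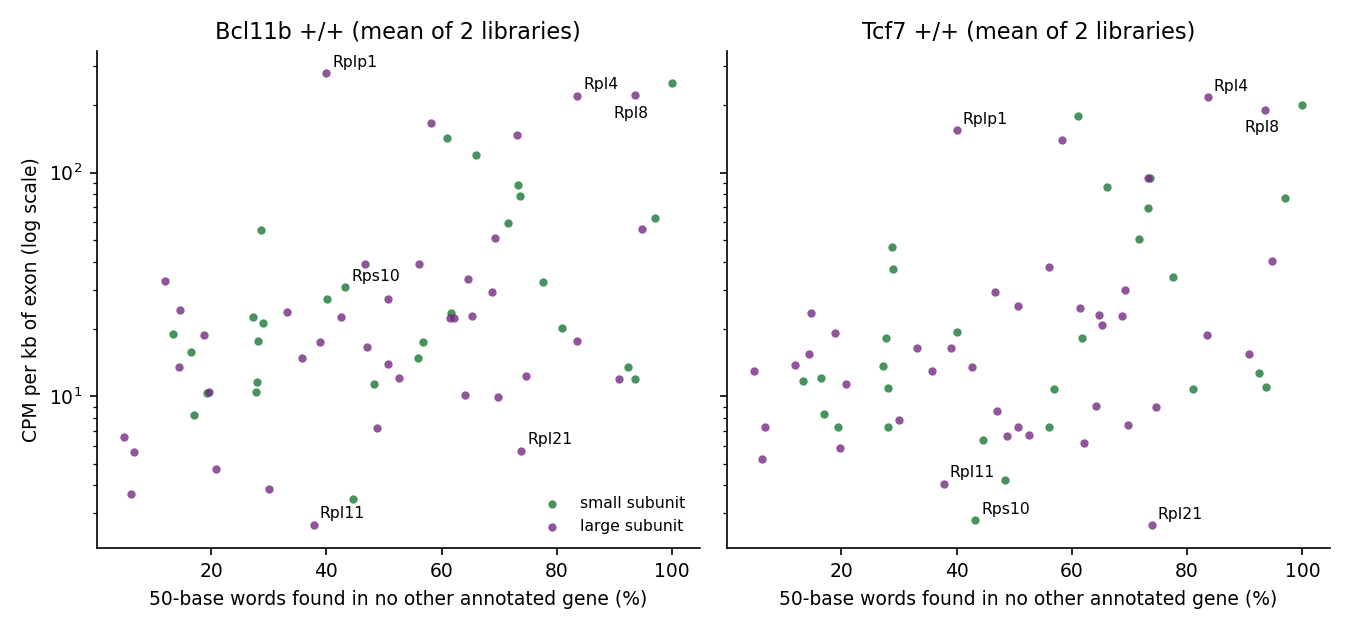
Level of the 68 genes in CPM per kb of exon (log axis) against the percent of their 50-base words found in no other annotated gene, in the +/+ groups of both tables; each point is 1 gene, the mean of 2 libraries. Levels run from 2.67 to 277.8 CPM per kb in Bcl11b +/+, and Rps10 sits low in the Tcf7 table only.

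Promoter sequence was available from RefSeq (GRCm38.p6) for 52 of the 68 genes. A run of at least 8 C or T bases that starts with C was searched on the coding strand, within 20 bases either side of the annotated start. It was present in 24 of 52 ribosomal protein genes (46.2%), 9 of 21 of the small subunit and 15 of 31 of the large, against 2080 of 16522 protein coding genes (12.6%). Its median length was 10.5 bases in these genes and 9 bases in all. The windows below are those of the genes that passed a test in the comparisons and have an entry, Rps27l, Rpl4, Rps3 and Rpsa, with Rpl13a as an example of a tract just after the annotated start. Each gives 20 bases before and 20 bases from the start on, with the pyrimidine run in capitals.
Rps27l: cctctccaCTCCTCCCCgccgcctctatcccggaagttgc
Rpl4: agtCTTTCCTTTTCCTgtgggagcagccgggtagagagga
Rpl13a: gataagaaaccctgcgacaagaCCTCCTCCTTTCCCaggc
Rps3: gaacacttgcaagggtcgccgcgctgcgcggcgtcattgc
Rpsa: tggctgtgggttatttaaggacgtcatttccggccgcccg
They lie at chr9:66946066-66946105 (plus strand), chr9:64173367-64173406 (plus), chr7:45128726-45128765 (minus), chr7:99483690-99483729 (minus) and chr9:120127746-120127785 (plus). Rps27l, Rpl4 and Rpl13a hold a run that begins 12 bases before, 17 bases before and 2 bases after the first annotated base. Rps3 and Rpsa hold none in this window. Annotated starts can be off by several bases, and a match or its lack is a description of these letters only.

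The first comparison addressed 1 copy of N440K beside the wild type. In +/N440K against +/+, only Rps27l rose and no ribosomal protein gene fell. Rps27l (chromosome 9, 66946086 to 66949516, plus strand) encodes a sister protein of Rps27 that can take its place in the ribosome, and is a known p53 target. Its controls stood at 26.6 and 26.6 CPM, the +/N440K libraries at 46.5 and 55.3, and the D/N440K libraries at 34.3 and 30.5. Both +/N440K libraries were above all libraries of the other groups. The log2 fold change was 0.93 (SE 0.232, edgeR quasi-likelihood adjusted p = 0.005212). The call did not hold with DESeq2 (adjusted p = 0.2355), nor without +/+ replicate 2 (edgeR adjusted p = 0.05317) or without +/N440K replicate 2 (0.05138). Over 21 alternatives its log2 fold change stayed between 0.81 and 1.05, and 18 called it (adjusted p 0.004305 to 0.2355).

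One call among 68 is 1.47% of these genes, and 4.79% of the 10910 genes tested were called higher. The median log2 fold change of the 68 genes was 0.02, beside 0.00 over all genes. Above 0 were 38 genes and below it 30. The groups did not overlap for 20 genes, 6 lower and 14 higher in +/N440K, and for 47.8% of all genes tested. The highest fold changes after Rps27l were those of Rpl31 and Rpl11, and the lowest those of Rpl29, Rpl34 and Rpl21.

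Rpl31, a large subunit protein at the exit of the peptide tunnel, went from 6.14 and 6.64 CPM in the controls to 11.4 and 11.8 (log2 fold change 0.84, SE 0.496, edgeR adjusted p = 0.353). Rpl11, which with Rpl5 carries 5S rRNA and can bind Mdm2, stood at 10.2 and 4.15 CPM in the controls against 13.1 and 8.88, so its groups overlapped. Rpl34 stood at 61.4 and 57.3 CPM in the controls against 39.2 and 42.4 (log2 fold change -0.54, SE 0.197, edgeR adjusted p = 0.07816). Its groups did not overlap, and D/N440K stood at 56.5 and 53.9 CPM, close to +/+. Rpl29 stood at 29.7 and 24.1 CPM in the controls against 18.8 and 14.8, and Rpl21 at 21.5 and 17.4 against 12.2 and 14.8, neither past the test.

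Summed over the 68 genes, the level was 5231 and 4903 CPM for wild type, 4884 and 5659 for the +/N440K genotype, and 4908 and 5253 for the D/N440K genotype. The 3 groups overlapped. The +/N440K to +/+ ratio of means was 1.04 (exact permutation test, two-sided, p = 1, with 0.3333 the smallest p that 2 against 2 allows), and the D/N440K to +/+ ratio was 1.003 (exact permutation p = 0.6667). In bulk samples, fewer cells of a type and less RNA per cell cannot be told apart, and CPM gives a share of the library, not RNA per cell. The small to large subunit ratio of summed CPM lay between 0.809 and 0.877 in all 11 libraries.

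In D/N440K against +/+, no ribosomal protein gene passed the test with edgeR, DESeq2, limma-voom or limma on the deposited values, while 12.4% of all genes were called by edgeR. No ribosomal protein gene had an unadjusted edgeR p under 0.05, beside 22.6% of all genes. The median log2 fold change was -0.02 (quartiles -0.12 and 0.09), with 38 genes below 0. For 24 genes the groups did not overlap, 13 lower and 11 higher in D/N440K, and for 51% of all genes tested. The extremes were genes of few reads. Rps28 stood at 6.14 and 5.81 CPM in the controls against 11.1 and 11.2 (log2 fold change 0.89, SE 0.5, edgeR adjusted p = 0.2924). Rps23, a decoding-centre protein, stood at 16.4 and 12.4 CPM in the controls against 9.42 and 7.12 (log2 fold change -0.76, SE 0.434, edgeR adjusted p = 0.3097). Neither gene's groups overlapped. Rpl15 and Rpl21 followed at the lower end, at -0.58 and -0.41, and Rpl7a and Rpl9 at the upper end, at 0.34 and 0.33.

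In D/N440K against +/N440K, no ribosomal protein gene passed the test with any of these tools, and 0.532% of all genes were called by edgeR. An unadjusted edgeR p under 0.05 was found for 4 of the 68 genes, beside 7.8% of all genes. The median was -0.05. For 22 genes the groups did not overlap, 17 lower and 5 higher in D/N440K, beside 35.4% of all genes. Rpl31 was lowest, with 3.43 and 7.12 CPM in D/N440K (log2 fold change -1.16, SE 0.526, edgeR adjusted p = 0.5428). Rpl15 and Rps27l came next, at -0.70 and -0.63. Rpl7a at 0.46, Rpl34 at 0.44 and Rpl35 and Rpl29 at 0.36 were highest. The comparisons of the Bcl11b table share libraries, so these folds are not independent of those above. The median SE of the 68 genes was 0.219, 0.214 and 0.225 in the 3 comparisons. Rpl34, whose fold change in +/N440K of -0.54 had an SE of 0.197, did not pass, so differences well above the SE could go uncalled.

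**Figure D2:**
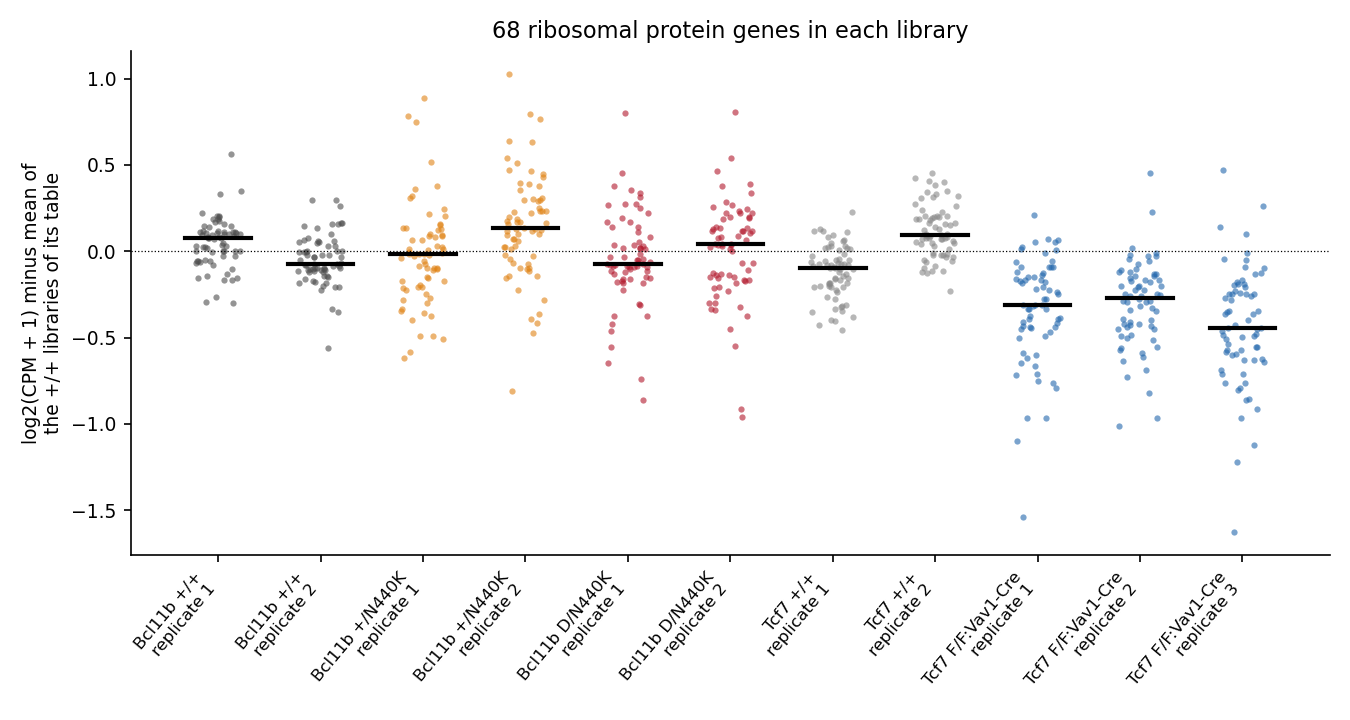
Each point is 1 of the 68 genes in 1 library, as log2(CPM + 1) minus the mean of the +/+ libraries of its table, with the median as a bar. Medians of the 6 Bcl11b libraries lie between -0.07 and 0.13; those of the 3 Cre-labelled Tcf7 libraries lie at -0.31, -0.27 and -0.45, below both Tcf7 +/+ libraries (-0.10 and 0.10).

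The genes that prepare and use ribosomes showed as few calls in the Bcl11b table. Of 44 genes of ribosome assembly, 14 of RNA polymerase I, 30 of translation initiation, 18 of elongation and other TOP mRNAs and 72 mitochondrial ribosomal proteins, edgeR called none in any of the 3 comparisons. Of all genes tested, 4.79% were called higher in +/N440K against +/+. In D/N440K, 12.4% of all genes were called against +/+ and 0.532% against +/N440K, either direction. No call in the last comparison is near the share of all genes. First by p were Rrp9, a U3 snoRNP protein, at 122.5 ± 1.26 CPM in +/N440K and 93.5 ± 6.34 in +/+ (SD, n = 2 each, edgeR adjusted p = 0.07127), and Mrps17 at 57.2 ± 0.271 CPM in D/N440K and 39.3 ± 5.14 in +/+ (edgeR adjusted p = 0.09373). Myc stood at 256.9 ± 3.04 CPM for wild type, 286.1 ± 9.64 with +/N440K and 265.6 ± 31.7 with D/N440K, and passed in no comparison of this table. Of 27 genes of growth control, Mxd1, a MYC antagonist, fell in +/N440K to 38.8 ± 1.75 CPM, from 66.4 ± 12.9 in the controls (log2 fold change -0.79, edgeR adjusted p = 0.009049).

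Of the 10 p53 and stress genes tested, 1 was called higher and 1 lower in +/N440K, while 4.79% of all genes were called higher. The share of all genes called lower in +/N440K is not given here. Genes called lower there, Mxd1 above included, therefore cannot be set against it. Sesn2, a stress-induced inhibitor of mTORC1, rose to 63.4 ± 0.341 CPM from 41.6 ± 4.82 in the controls (SD, n = 2 each, edgeR adjusted p = 0.03974), and Trp53inp1 fell to 102.1 ± 17.5 CPM from 144.3 ± 17.3 (edgeR adjusted p = 0.01634). Cdkn1a, the main p53 effector on the cell cycle, stood at 5.88 ± 1.08 CPM in the controls and 14.2 ± 8.84 in +/N440K, where it did not pass (edgeR adjusted p = 0.1079). Of 19 DNA replication genes, Cdc45 fell in +/N440K and Mcm3 in D/N440K, each alone. In D/N440K against +/+, 12.4% of all genes were called in either direction. Markers of other cells moved in the same libraries. The 10 NK and ILC1 markers summed to 991.6 to 1128 CPM for wild type, 1913 to 2003 with +/N440K and 2230 to 2247 with D/N440K. The 10 pre-TCR and double-positive markers summed to 955.9 to 987.6, 202.8 to 218.3 and 135.1 to 138.6 CPM, with Dntt at 0 in both mutant groups. The 8 erythroid markers summed to 28.9 to 61.0, 12.5 to 28.1 and 92.4 to 122.2 CPM. The 10 myeloid markers summed to 154.1 to 189.2, 264 to 294.1 and 352 to 367.7 CPM, with Elane and S100a9 at 0 in all 3 groups, and the 9 B lineage markers to 430.3 to 439.5, 322 to 333 and 230.5 to 259.6 CPM, with Ms4a1 and Pax5 at 0. The 12 T and innate lymphoid markers summed to 5296 to 5396, 5566 to 5678 and 5592 to 5736 CPM, while the dendritic and stromal sums of +/N440K overlapped those of wild type. The part of any of these in the level of Rps27l was not tested.

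The comparison at postnatal day 7 asked the same of the libraries that carry the Cre label. There 66 of the 68 genes had a fold change below 0, against 51.0% of the 12366 genes tested, and the median was -0.33, beside -0.01 over all genes. Most of these shifts were small. Past the test, 5 genes fell (7.35%) and none rose, and 11.1% of all genes were called lower, so the share called was under that of the table. For 36 of the 68 genes every Cre-labelled library was below both +/+ libraries, and for none above, while 24.1% of all genes tested were lower without overlap. The unadjusted edgeR p was under 0.05 for 19 of the 68 genes and for 34.9% of all genes. The median was -0.37 over the small subunit and -0.32 over the large, with 27 of 28 and 39 of 40 genes below 0.

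**Figure D3:**
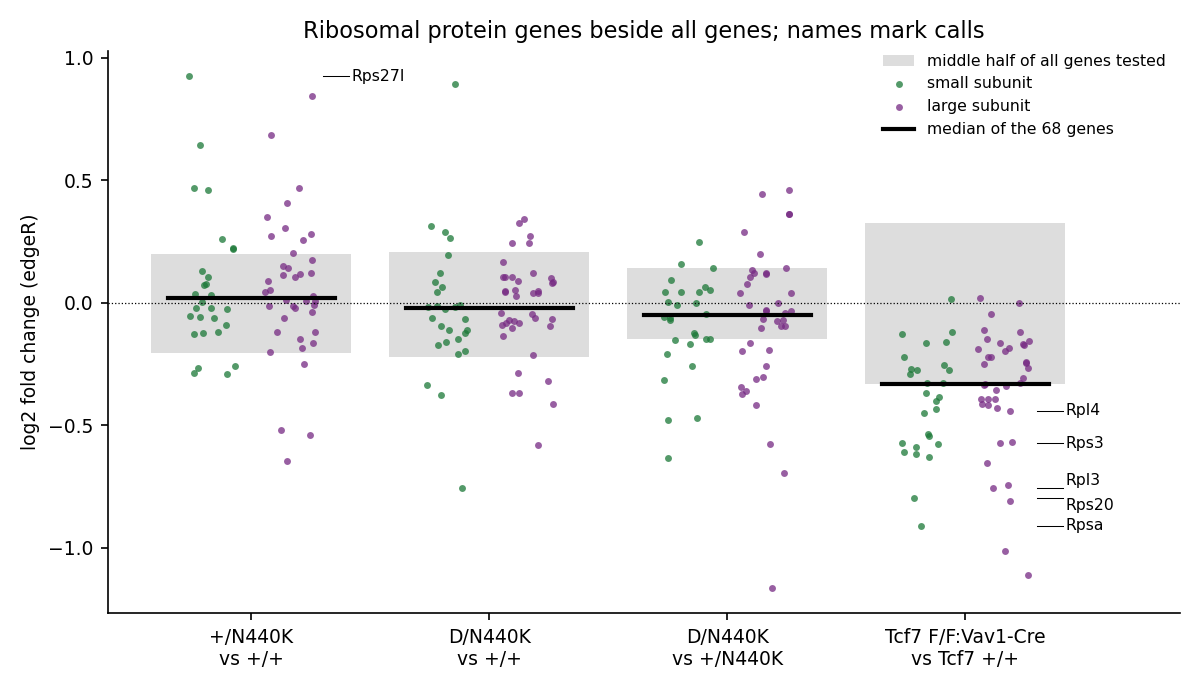
Log2 fold change of each of the 68 genes in the 4 comparisons, small and large subunit apart, with their median as a bar and the range from the lower to the upper quartile of all genes tested in grey. The medians are 0.02, -0.02, -0.05 and -0.33; the 6 named genes passed edgeR's test at adjusted p under 0.05.

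Of the 5 genes that fell, 3 belong to the small subunit. Rps3 (chromosome 7, 99477896 to 99483738, minus strand), a protein at the mRNA entry with a further part in DNA repair, stood at 301.5 and 389.5 CPM in the controls against 250.7, 220.4 and 226.4 in the Cre-labelled libraries (log2 fold change -0.57, SE 0.136, edgeR adjusted p = 0.005215). All 3 libraries were below both controls. Rps3 passed in 20 of 21 alternatives, the exception being the fit of libraries with Y-linked reads only, in which no gene of the table passed. Rps20 (chromosome 4, 3831334 to 3835665, minus strand), a protein of the 40S head, stood at 42.3 and 61.4 CPM in the controls against 29.9, 33.9 and 25.6 (log2 fold change -0.80, SE 0.227, edgeR adjusted p = 0.0167). Rpsa (chromosome 9, 120127689 to 120132369, plus strand), also known as the laminin receptor, stood at 21.4 and 24.8 CPM in the controls against 11.3, 11.3 and 13.9 (log2 fold change -0.91, SE 0.278, edgeR adjusted p = 0.0244). For both, the groups did not overlap.

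The other two are large subunit proteins that reach into the core of the particle. Rpl4 (chromosome 9, 64173375 to 64178666, plus strand), which lines the exit tunnel, stood at 373.6 and 496.6 CPM in the controls against 366.3, 307.9 and 289.9 (log2 fold change -0.44, SE 0.142, edgeR adjusted p = 0.03364). The groups nearly met. Rpl3 (chromosome 15, 80077791 to 80091868, minus strand), close to the peptidyl transferase centre, stood at 35.5 and 62.6 CPM in the controls against 30.7, 31.1 and 25.6 (log2 fold change -0.76, SE 0.247, edgeR adjusted p = 0.0353). Without +/+ replicate 2 the fold changes of Rpl3, Rpl4, Rps20 and Rpsa were -0.29, -0.22, -0.50 and -0.80, none past the test. Rpl3 and Rpsa did not pass without any single Cre-labelled library either (edgeR adjusted p 0.08368 to 0.1568 and 0.05295 to 0.1014), Rpl4 not without the second or the third, and Rps20 not without the first or the third. Only 14.4% of Rpl3's 50-base stretches are found in no other annotated gene, against 97.0% for Rps3, 92.4% for Rps20, 83.6% for Rpl4 and 56.0% for Rpsa.

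**Figure D4:**
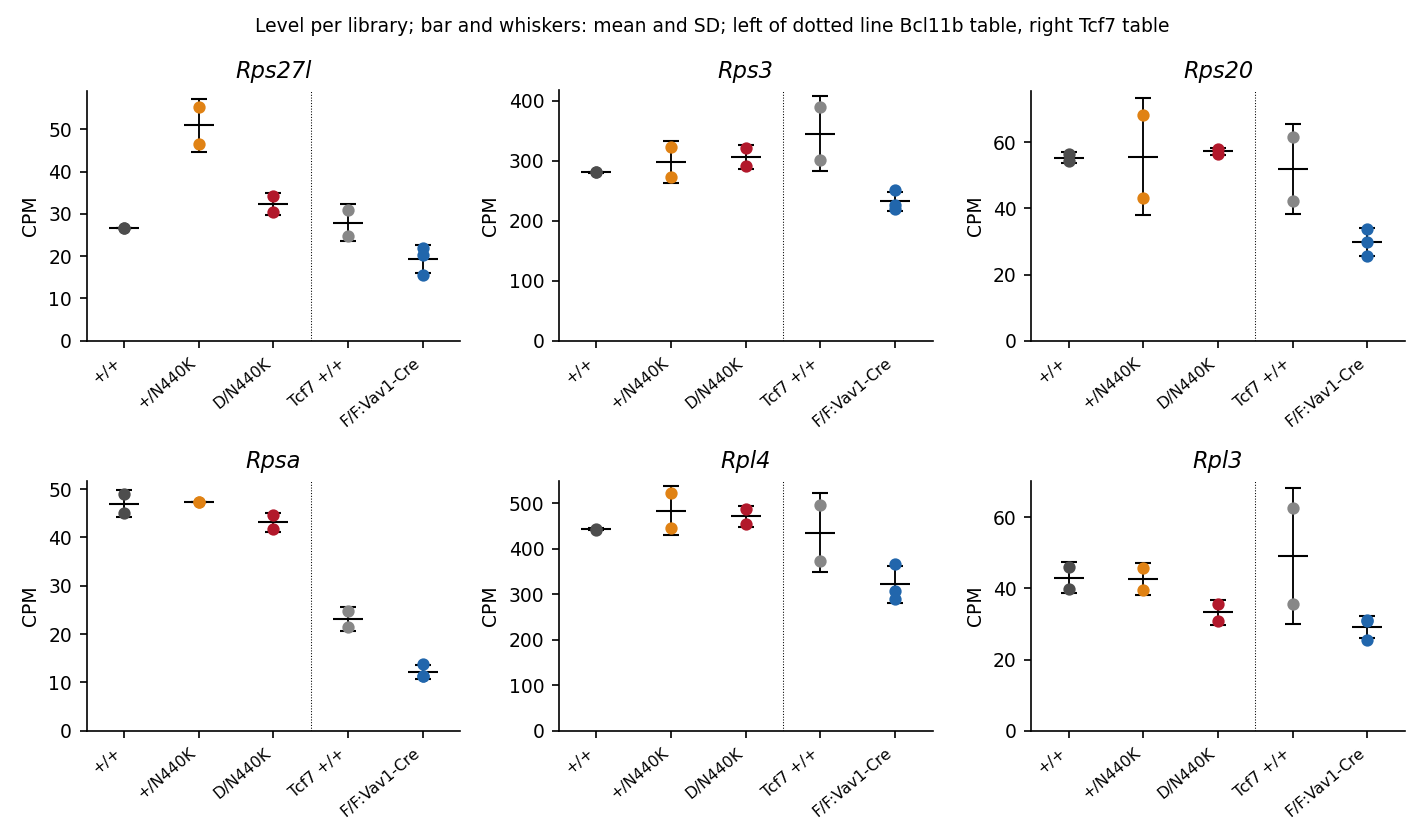
CPM of the 6 genes that passed in a comparison, each point 1 library, with mean and SD per group (n = 2, and n = 3 for Tcf7 F/F:Vav1-Cre); the dotted line parts the Bcl11b table (postnatal day 0) from the Tcf7 table (postnatal day 7). Rps27l is highest in +/N440K at 46.5 and 55.3 CPM; in the Tcf7 table +/+ replicate 2 is the highest library for the 5 other genes.

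Tcf7 +/+ replicate 2 stood above replicate 1 in 51 of the 68 genes, with a median difference of 0.19 on the log2 scale. Without replicate 2, 1 gene was called, beside 7.62% of all genes called lower, and the median was -0.21. Without replicate 1, 17 were called and the median was -0.40. These are 25% of the 68 genes, and 17.8% of all genes were called lower in that fit, so the share called was then above that of the table. Leaving out Cre-labelled replicate 1, 2 or 3 left 3, 3 and 1 genes called, beside 7.51, 7.09 and 6.17% of all genes called lower. Among libraries with Y-linked reads only, 65 of 68 genes were below 0 with a median of -0.28, and no gene of the whole table was called, with 1 library against 2. Over the 35 genes with at least 50% of their 50-base stretches found nowhere else the median was -0.27, and over the 34 that overlap no other annotated gene it was also -0.27. Beyond Rps3, DESeq2 and the fit without a filter called none of these genes, and the count therefore depends on the tool and on each library, while the median stayed below -0.2 in every alternative run.

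The summed level was 3920 and 4486 CPM in the controls against 3600, 3378 and 3190 in the Cre-labelled libraries, so the groups did not overlap. The ratio of means was 0.807 (exact permutation test, two-sided, p = 0.1, the smallest that 2 against 3 allows). Among genes of log2 CPM 2.5 to 5 the median was -0.41 over 34 ribosomal protein genes and -0.01 over the 5042 other genes. Among those of log2 CPM 7 to 9 it was -0.16 over 6 and 0.02 over 2120.

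The largest fold changes were those of weakly counted genes. Rpl21 stood at 7.89 and 10.1 CPM in the controls against 2.43, 7.34 and 2.23 (log2 fold change -1.11, SE 0.511, edgeR adjusted p = 0.126). Rpl11 stood at 7.33 and 14.7 CPM in the controls against 4.85, 7.34 and 3.89 (log2 fold change -1.01, SE 0.445, edgeR adjusted p = 0.1091). The ranges of Rpl11 overlapped by 1 library, and those of Rpl21 did not overlap. Rpl5, the partner of Rpl11, stood at 14.7 and 26.5 CPM in the controls against 13.8, 11.9 and 10.01 (edgeR adjusted p = 0.0783). At the other end, Rpl10 was at 0.02, Rps23 at 0.02 and Rpl34 at 0.00. Rpl10, which joins the large subunit last, stood at 52.4 and 44.5 CPM in the controls against 45.3, 48.0 and 53.4.

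Genes with a sister gene, a known role or a part in disease were read one by one. Rpl22, required for αβ T cell development, stood at 172.9 and 154.4 CPM in the Bcl11b wild type, at 142.8 and 183.6 with +/N440K and at 153.3 and 149.6 with D/N440K. At day 7 it stood at 101.4 and 134.1 CPM in the controls against 105.1, 87.6 and 84.6 (log2 fold change -0.36, SE 0.168, edgeR adjusted p = 0.1395), with overlap. Its sister Rpl22l1, in the Tcf7 table only, stood at 15.8 and 23.1 CPM in the controls against 11.3, 11.9 and 13.3. In the Bcl11b table Rpl22l1 had 6 to 10 counts in each library. Rps27l at day 7 stood at 24.8 and 31.0 CPM in the controls against 20.2, 22.04 and 15.6 (log2 fold change -0.54, SE 0.259, edgeR adjusted p = 0.1484), the opposite side of 0 from +/N440K. Rps27, its sister, had 3 to 10 counts per library in the Bcl11b table. In the Tcf7 table it stood at 5.07 and 5.64 CPM in the controls against 8.09, 6.78 and 9.46, higher without overlap, on 9 to 17 counts. Only 1.35% of its 50-base stretches are found in no other annotated gene.

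Rpl7 and its nucleolar sister Rpl7l1 had fold changes of -0.17 and -0.22 in the Tcf7 comparison, and 0.04 and -0.17 in +/N440K against +/+. Rpl10l, Rpl39l and Rpl3l, the sisters of testis and muscle, had at most 12 counts in any library. The X-linked genes Rps4x, Rpl39 and Rpl10 had Tcf7 fold changes of -0.63, -0.17 and 0.02, none past the test. Rps4x stood at 22.5 and 37.2 CPM in the controls against 21.8, 23.7 and 12.8, where 23.7 is from the library with Y-linked reads.

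Of the genes mutated in Diamond-Blackfan anaemia or lost in the 5q- syndrome, Rps19 stood at 51.3 and 49.6 CPM in the Tcf7 controls against 40.4, 37.3 and 37.3 (edgeR adjusted p = 0.1565), with no overlap. Rps14 stood at 105.9 and 136.4 CPM against 110.0, 104.0 and 98.5, and Rps26 at 30.4 and 25.9 against 16.2, 27.7 and 17.8, both with overlap. Rps27a, made as a fusion with ubiquitin, had 13.5 and 15.2 CPM against 12.1, 9.04 and 8.90. The stalk proteins Rplp0, Rplp1 and Rplp2 had fold changes of -0.11, -0.24 and -0.34 in the Tcf7 comparison and of 0.03, -0.04 and 0.14 in +/N440K against +/+. None of these genes passed in a comparison. Rps6, the target of S6 kinase, had 2 to 11 counts per library, in neither table of normalised values, with 15.4% of its 50-base stretches found in no other annotated gene.

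In the Cre-labelled libraries, 19 of 44 genes of ribosome assembly fell and none rose, with a median of -0.56 and 42 below 0. That is 43.2% of the list called lower, beside 11.1% of all genes tested. Dkc1, the pseudouridine synthase of the H/ACA snoRNPs, fell to 23.0 ± 4.55 CPM, from 64.2 ± 20.7 in the controls (SD, n = 3 and 2, edgeR adjusted p = 0.0002713). Nop58 and Nop56, the scaffold of the box C/D snoRNPs, fell to 35.7 ± 8.42 and 46.4 ± 3.25 CPM, from 98.6 ± 38.3 and 91.3 ± 15.2 (edgeR adjusted p = 0.0002856 and 0.0008403). Nucleolin (Ncl) fell to 152.7 ± 9.48 CPM from 304.9 ± 102.9 (edgeR adjusted p = 0.0003221). No test set this list against the ribosomal proteins.

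Of 14 genes of RNA polymerase I, which transcribes rRNA, 4 fell: Taf1d, Polr1a, Polr1b and Taf1b, with log2 fold changes of -0.93, -0.59, -0.64 and -0.69 (28.6% of the list). Of 30 initiation factors 11 fell (36.7%) and none rose. Pabpc1, the poly(A)-binding protein and itself a TOP mRNA, fell to 355.5 ± 16.3 CPM from 501.3 ± 48.3 (edgeR adjusted p = 0.005538), followed by p by Eif4b, Eif3a and Eif3e at -0.61, -0.52 and -0.64. Of 18 genes of elongation and other TOP transcripts 6 fell (33.3%), with all 18 below 0 and a median of -0.44. Nap1l1, a histone chaperone, fell to 34.4 ± 7.44 CPM from 112.2 ± 67.0 (edgeR adjusted p = 0.0003656), and the snoRNA hosts Gas5 and Snhg1 and the synthetase scaffold Eef1e1 by log2 fold changes of -0.997, -0.90 and -1.31. Mitochondrial ribosomal proteins, the partner set of the organelle, had 4 genes of 73 lower (Mrpl42, Mrpl3, Mrps23 and Mrpl50), Mrpl4 higher, and a median of -0.16. Their 5.48% called lower is under the 11.1% of all genes.

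Among 27 growth control genes 3 rose and 5 fell (11.1% and 18.5%, beside 12% and 11.1% of all genes). Myc fell to 41.97 ± 4.87 CPM, from 146.2 ± 7.60 in the controls (SD, n = 3 and 2, log2 fold change -1.80, SE 0.167, edgeR adjusted p = 4.716e-07). Mxi1, a MYC antagonist, rose to 56.5 ± 5.56 CPM from 21.98 ± 0.00456 (edgeR adjusted p = 0.0002033), and Mycn rose with a log2 fold change of 1.04 (SE 0.269, edgeR adjusted p = 0.009129). Rps6kb1, the S6 kinase, fell to 67.95 ± 9.31 CPM from 111.3 ± 14.8 (edgeR adjusted p = 0.005796). Of 10 p53 and stress genes Cdkn1a and Sesn2 rose and Trp53inp1 fell (20% and 10%, beside 12% and 11.1% of all genes). Of 19 DNA replication genes 8 fell (42.1%), all 19 were below 0, and the median was -0.55; Rrm1, Cdc6, Mcm6 and Mcm7 led by p, with log2 fold changes of -0.96, -1.09, -0.62 and -0.55.

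**Figure D5:**
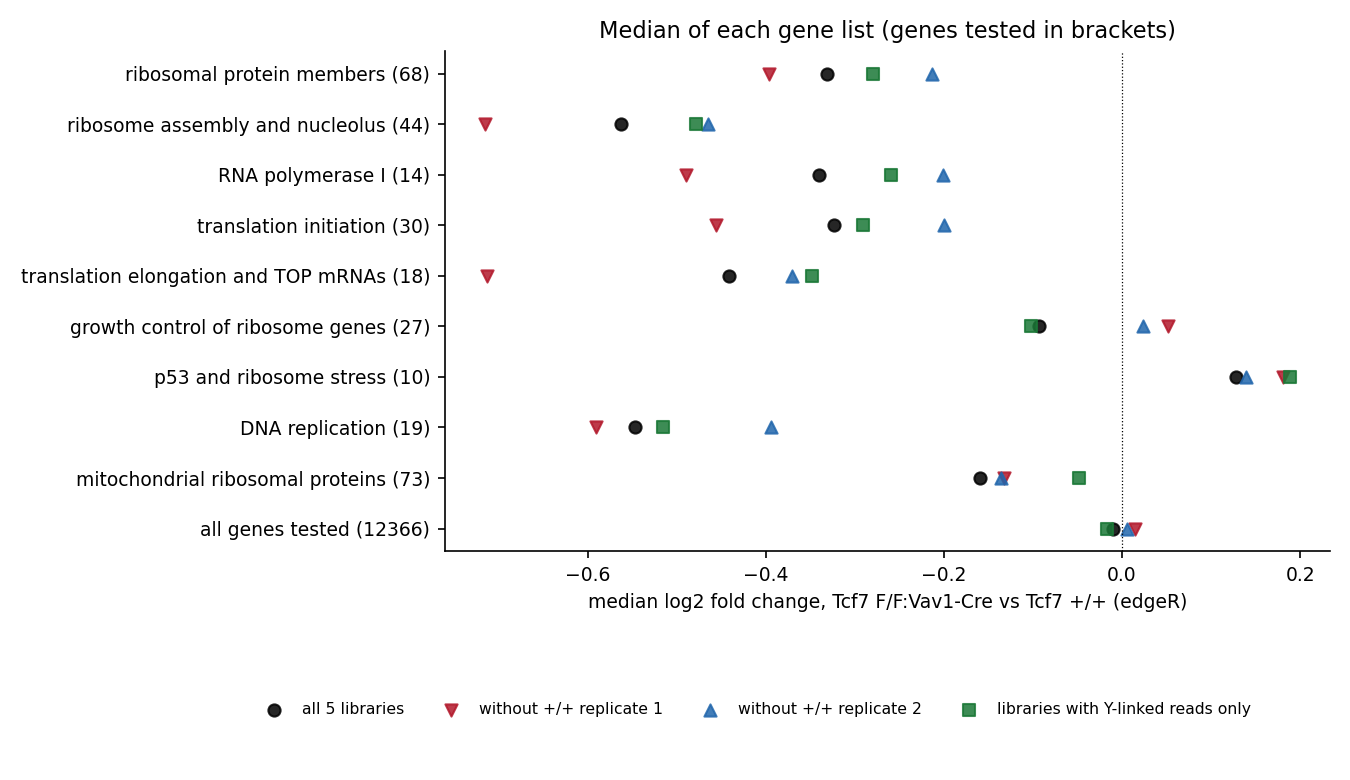
Median log2 fold change of each gene list, Tcf7 F/F:Vav1-Cre against Tcf7 +/+, with all 5 libraries, without either +/+ library, and with the 3 libraries that have Y-linked reads. The medians of the 68 ribosomal protein genes (-0.33) and of ribosome assembly (-0.56) stay below 0 in all 4 fits, and that of growth control changes side.

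These counts depended on the libraries. Without Tcf7 +/+ replicate 2, the genes called lower were 15 of ribosome assembly, 2 of RNA polymerase I, 3 of initiation, 5 of elongation and TOP, 5 of DNA replication and 0 mitochondrial ribosomal proteins, beside 7.62% of all genes; without replicate 1 they were 26, 8, 17, 9, 14 and 8, beside 17.8% of all genes. Leaving out a Cre-labelled library gave 12 to 17 of assembly, 1 to 6 of initiation and 3 to 4 of DNA replication, with 2 of RNA polymerase I and 5 of elongation each time. Among libraries with Y-linked reads only, the medians were -0.48 for assembly, -0.29 for initiation, -0.35 for elongation and TOP and -0.52 for DNA replication, with no call in the table.

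Markers of other cells moved with the same groups. From the Tcf7 controls to the Cre-labelled libraries, the 10 myeloid markers went from 462.9 to 823 summed CPM to 1175 to 1300, with Elane at 0 in both groups. The 8 dendritic and MHC II markers went from 1433 to 2017 to 2030 to 2217, and the 9 of stroma and epithelium from 191.9 to 217.8 to 339 to 376. The 9 B lineage markers went from 621.3 to 742.3 to 364.2 to 398.3, the 10 NK and ILC1 markers from 1138 to 1387 to 804.2 to 942.7, and the 12 T and innate lymphoid markers from 4797 to 5007 to 3841 to 4381. Pre-TCR and double-positive markers summed to 1168 to 1233 and 1094 to 1139, with Dntt and Rag2 at 0 in Tcf7 F/F:Vav1-Cre. Erythroid markers summed to 8.92 to 9.10 and 8.38 to 11.8, with 6 of 8 at 0. The part of these cells and of DNA replication in the levels of ribosomal protein genes was not tested.

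Whether the effects of D/N440K and of the Cre label differed was tested with all 11 libraries in 1 edgeR model, each effect against its own +/+. The ages and tables differ with the genotype and cannot be told apart from it. The difference (D/N440K effect minus Tcf7 effect) was above 0 in 62 of 68 genes with a median of 0.34, beside 0.02 over all genes, and 1 gene passed, while 11.5% of the 12249 genes tested did. That gene was Rps3, with 281.3 and 280.6 CPM in the Bcl11b wild type against 292.0 and 320.6 in D/N440K, and the Tcf7 values above (difference 0.70, SE 0.177, edgeR adjusted p = 0.009081). Without D/N440K replicate 2 it did not pass (0.64, edgeR adjusted p = 0.06408), and it passed in the 15 other alternatives of 16 (lowest adjusted p 4.047e-05).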

How the data were processed

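Per the labels' protocols, libraries of sorted thymocytes came from RamDA-seq with modifications, which copies total RNA along its length. The submitters' processing notes name HTSeq 0.11.2, STAR 2.7.3a, fastp 0.20.0, Picard 2.21.1, SAMtools 1.9 and edgeR, with mm10 (GRCm38). The annotation release and the strand of counting are not given in the sources used here. The authors deposited whole counts per gene without normalization, and a normalised signal per gene: CPM, counts scaled by the library total times its TMM factor, for genes that passed a low-count filter. Checked on each library, 100% of these values gave back whole counts within 0.001 reads, and the genes listed were the 10910 and 12366 that filterByExpr kept.

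Counts were filtered with filterByExpr (minimum count 10), scaled by TMM and tested in edgeR's quasi-likelihood framework (R 4.3.3, edgeR 4.0.16, limma 3.58.1, DESeq2 1.42.0) with 1 coefficient per group and 3 residual degrees of freedom per table. A gene was called at Benjamini-Hochberg adjusted p under 0.05 over all genes, two-sided. SE is the size of a log2 fold change fitted without a prior count, divided by the root of F. The printed fold changes come from the quasi-likelihood fit with its default prior count. The Bcl11b table had a biological coefficient of variation of 0.0445 and the Tcf7 table of 0.122. Tested on simulated data, the model recovered 77% of 2-fold and 94% of 4-fold changes for +/N440K, with 6.56% of calls false, and 81% and 97.0% for Tcf7, with 3.28% false. These shares are over genes that passed the filter. The simulation gave every gene the same dispersion and no differences between whole libraries, such as those of the Tcf7 +/+ pair. Its rates need not hold for these libraries, and changes under 2-fold were not simulated. Names, exons and 50-base words came from GENCODE M21, which holds 53706 of the 53801 identifiers of the Bcl11b table and 55230 of the 55471 of the Tcf7 table. Promoters came from RefSeq.

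The genes and lists were chosen with earlier results of these data known. The text names called genes, the 3 highest and lowest fold changes per comparison and levels per kb, genes with sister genes or known roles, and of each other list up to 4 called genes by p, or Rrp9 and Mrps17 as first by p; Cdkn1a and Myc in comparisons without a call, and Rpl13a, were chosen after their values were seen. A few genes that this would name are left out of the text. Same-numbered deviations had correlations of -0.108 to 0.073, which gave no sign that replicate numbers pair libraries. In groups of 2 libraries the deviations mirror each other, so these are few separate values, and they cannot exclude a pairing. Alternatives were other normalizations, filters and tools, a replicate block, length and GC offsets, and each library left out; when 1 library was left in a group, it was assumed to vary like the other groups. Added after seeing the data were the reads recovered from the normalised values, libraries with Y-linked reads only, and subsets of genes by unique words and overlap.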

Additional observations from a re-analysis of the deposited data

Results flagged for a closer look

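Rps3 was the 1 ribosomal protein gene whose effect differed between D/N440K and the Tcf7 comparison by a test of the difference itself: 0.698 on the log2 scale (edgeR adjusted p = 0.009081), from 0.12 in the former and -0.57 in the latter. All 3 Tcf7 F/F:Vav1-Cre libraries were below both controls, and both D/N440K libraries were above both of theirs. Genotype, age and table differ together. Groups of 2 or 3 libraries are too few for a check for single outlying libraries.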

How the results depend on the processing

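Of the ribosomal protein genes, 5 were called in the Tcf7 comparison, 1 without a filter on low counts, 1 with DESeq2, 12 with length and GC offsets, 0 among libraries with Y-linked reads only, and 1 to 17 when a library was left out. A replicate block gave 2 there, and 3 with length and GC offsets. Correlations of same-numbered libraries gave no sign of pairing but cannot exclude it. Of all genes, 11.1% were called lower in the main fit, 7.15% with DESeq2 and 7.12% with a replicate block. For the fits without a filter and with length and GC offsets that share is not given here, so their counts cannot be set against it. The median of the Tcf7 comparison ranged from -0.396 to -0.213 when a library was left out. In +/N440K against +/+, the 1 call became 0 with DESeq2 and 2 with length and GC offsets, and 0 to 1 when a library was left out. When a library was left out, the median of +/N440K against +/+ ranged from -0.013 to 0.132, and those of D/N440K against +/+ and +/N440K from -0.074 to 0.041 and from -0.176 to 0.048, so their side of 0 rests on single libraries. With length and GC offsets the first was -0.012. Calls of the difference between effects were 2 by library size alone, 2 with a stricter filter (CPM of 5 in 2 libraries), and 0 to 5 when a library was left out. The cause of these changes was not tested. RLE and member-free TMM scaling left each count of called ribosomal protein genes in place, as did upper-quartile scaling in the 4 comparisons within a table; it was not run for the difference between effects. Few reads per gene, down to 3 in a library, limit the weakly counted genes. Intervals and SEs cover these libraries only.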

Other observations

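Rps3a3, a processed pseudogene of Rps3a1, had 7 and 10 counts in the Bcl11b wild type, 0 and 0 with +/N440K, and 13 and 12 with D/N440K. In the Tcf7 table it had 0 to 1 counts per library. Only 34.9% of its 50-base words are found in no other annotated gene. It was chosen after its values were seen. Rps4l, a transcribed pseudogene, had 13.3 to 22.3 CPM in the Bcl11b table, and 8.46 to 26.6 CPM in the Tcf7 table.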
